A study of Mus musculus with 4 samples.

Results

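Glucose is taken up by transporters of the GLUT family, broken down to pyruvate by glycolysis, and either passed to mitochondria through pyruvate dehydrogenase or reduced to lactate. The pentose phosphate pathway branches off after the hexokinase step and yields NADPH and ribose phosphate. In dendritic cells, including plasmacytoid dendritic cells (pDCs), these routes supply energy and building blocks, and glycolysis is known to respond to activation and to the oxygen-regulated transcription factor HIF-1.

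The genes described here are 37 members of these routes, chosen by name: glucose transporters, the enzymes of glycolysis, lactate and pyruvate handling, the pentose phosphate pathway, and Hif1a. Of the 37, 33 were measured by a probe set annotated to exactly 1 gene symbol, among 19938 genes so measured. Gapdh was annotated only in 25 probe sets that carry several symbols, and its level is not given. Gpi1, Eno1 and G6pdx were not analysed here.

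Expression was measured with microarrays in pDCs sorted as mature cells from the spleens of Flt3 KO mice (2 samples) and WT mice (2 samples). The product of Flt3 is a receptor kinase that binds FLT3 ligand and drives dendritic cell development. Per the labels, all mice were at steady state and all spleens were digested with collagenase and DNase; strain, age and the deleted part of Flt3 are not stated there. The labels call the samples of each genotype biological replicates but do not say whether each was 1 animal or a pool, and p-values measure the spread between these samples. The values are the authors' processed intensity, used as log2; a difference is Flt3 KO minus WT, its standard error (SE) and p come from limma, and a gene is called where the Benjamini-Hochberg adjusted p over all genes is under 0.05.

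Flt3 itself had log2 intensities of 8.46 and 8.61 in the Flt3 KO arrays, against 10.71 and 10.77 in the WT arrays, which agrees in direction with the labels. Array medians of the deposited intensity were 57.2 and 56.2 in Flt3 KO and 55.1 and 55.3 in WT. Markers of pDCs were bright in all arrays (median log2 intensity of 14 markers 10.98 and 11.02 in Flt3 KO, and 11.27 and 11.30 in WT). The number of arrays limits the precision: an exact two-sided permutation test of 2 against 2 cannot go below 0.3333, so calls rest on the variance limma shares across genes.

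In Flt3 KO pDCs the genes for the glycolytic activator Pfkfb3 and the inducible hexokinase Hk2 were higher, and those for the glucose transporter GLUT1 (Slc2a1) and lactate dehydrogenase B (Ldhb) were lower. Pfkfb3 was 1.95-fold and Hk2 1.53-fold higher, while Slc2a1 was 1.40-fold and Ldhb 1.503-fold lower. The value for Ldhb is that of its brighter probe set, and a second had a smaller log2 difference, -0.43. No other member passed the threshold, so 29 of 33 were not called. The 33 members did not move one way: 14 differences were positive and 19 negative (17 and 16 under quantile normalization), with a median of -0.015, beside -0.0010 over all genes. In pDC preparations of this kind, fewer cells that express a gene and less RNA per cell cannot be told apart.

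The 4 called members were 12.1% of the 33, and the background was 2.39% of all genes (476 of 19938), 1.08% higher and 1.31% lower. Most members were bright, and bright genes were called more often: 29 members lay at or above the median level of all genes, where 4.34% of genes were called. Replicates of the 2 genotypes did not overlap for 10 higher and 12 lower members, 66.7% of the 33, beside 47.2% of all genes (21.9% higher and 25.3% lower). These counts include Hk1 and Pgam1, for which every other probe set had overlapping genotypes.

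**Figure D1:**
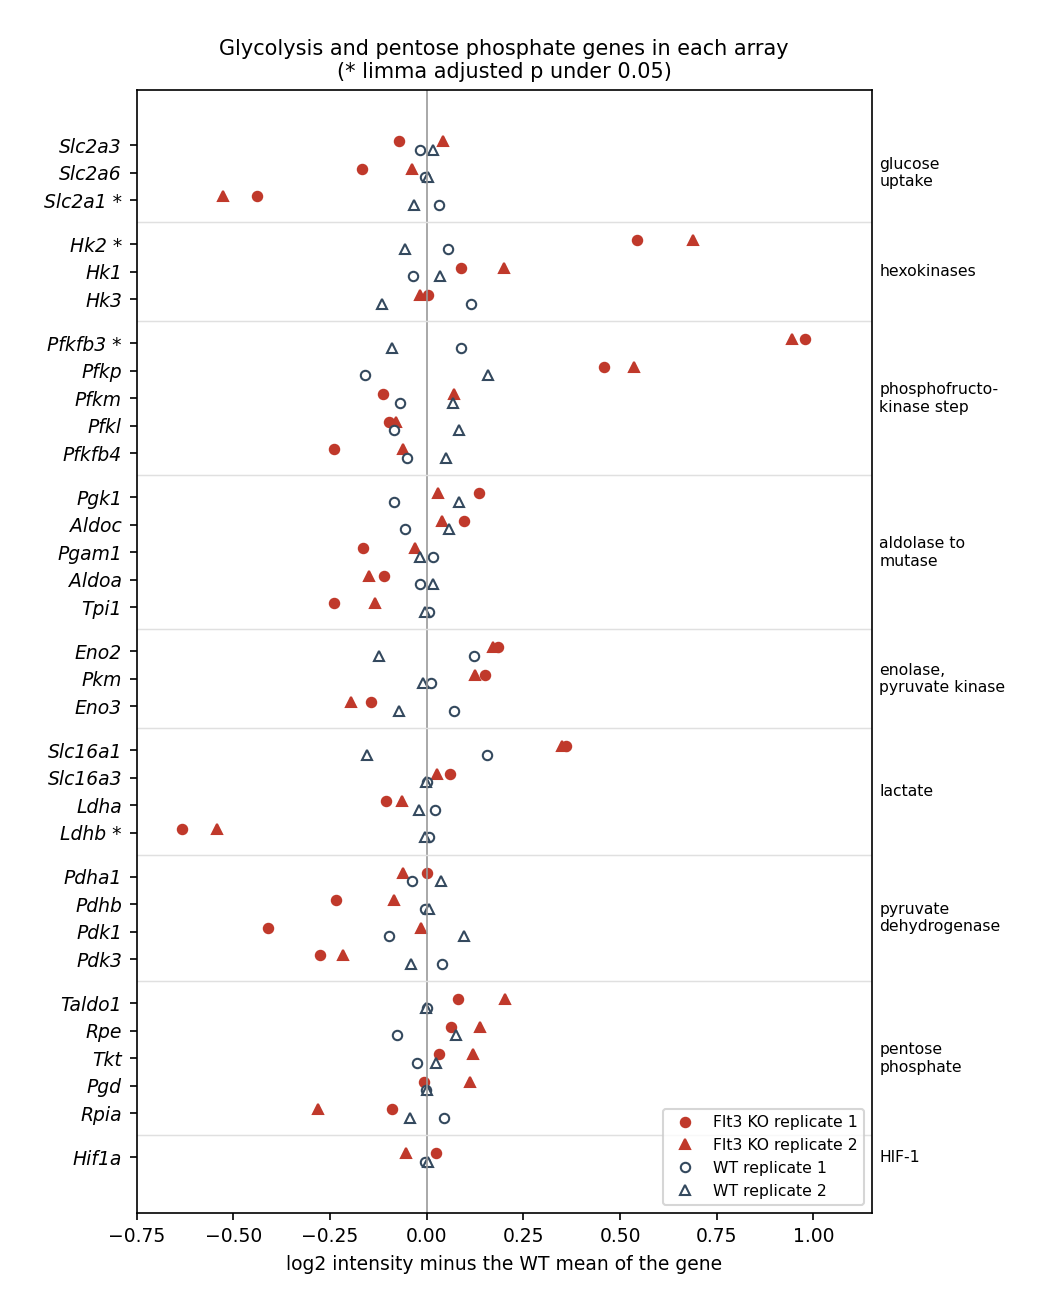
Log2 intensity of each of the 33 measured members in each array, minus the WT mean of that gene (x axis), with genes grouped by step; filled symbols are Flt3 KO arrays, open symbols WT arrays, and a star marks an adjusted p under 0.05. Pfkfb3 and Hk2 lie to the right and Slc2a1 and Ldhb to the left of their WT arrays, and most other genes stay close to 0.

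Glucose uptake begins with the facilitative transporters. Slc2a1, the gene of the widely expressed transporter GLUT1, had log2 intensities of 9.78 and 9.70 in the Flt3 KO arrays and 10.26 and 10.19 in the WT arrays. Both Flt3 KO arrays were below both WT arrays. The level averaged 9.74 ± 0.061 in Flt3 KO and 10.22 ± 0.045 in WT (SD, n = 2 each), and it fell by 0.48 on the log2 scale (SE 0.056, limma adjusted p = 0.0097). The high-affinity transporter gene Slc2a3 (GLUT3) had 9.85 and 9.96 in Flt3 KO and 9.90 and 9.94 in WT, so its genotypes overlapped, with a difference of -0.015 (95% interval -0.15 to 0.12). Slc2a6, which encodes the lysosomal transporter GLUT6, differed by -0.10 (adjusted p = 0.46).

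Hexokinases trap glucose in the cell by phosphorylating it. Hk2, the gene of the inducible, mitochondria-binding hexokinase, had 6.63 and 6.78 in the Flt3 KO arrays, against 6.14 and 6.03 in the WT arrays. All Flt3 KO values were above all WT values. Its means were 6.70 ± 0.10 in Flt3 KO and 6.09 ± 0.079 in WT (SD, n = 2 each), and it rose by 0.62 (SE 0.093, adjusted p = 0.022). Hk3, a hexokinase of myeloid cells, had 5.81 and 5.79 in Flt3 KO and 5.92 and 5.69 in WT, a difference of -0.0067 with a 95% interval of -0.25 to 0.24.

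Hk1, the housekeeping hexokinase, had 2 probe sets with a single symbol, and the brighter one kept by the rule is doubtful. Probe set numbers follow the chromosomes, and 9 of its 10 nearest neighbours belong to chromosome 14, whereas Hk1 lies on chromosome 10. Its only accession recurs in 16 probe sets annotated to both Hk1 and the ribosomal protein gene Rpl17. The dimmer probe set, whose neighbours all lie on chromosome 10, gave 6.88 and 7.11 in Flt3 KO and 6.91 and 6.89 in WT. Those genotypes overlapped, and the difference was 0.090 (SE 0.094, adjusted p = 0.69 over all probe sets with 1 symbol), against 0.14 (adjusted p = 0.23) for the brighter one.

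Phosphofructokinase is the committed step of glycolysis and is switched on by fructose 2,6-bisphosphate, which the PFKFB enzymes make and break down. Pfkfb3, whose product strongly favours synthesis of that activator, had log2 intensities of 8.02 and 7.98 in the Flt3 KO arrays and 7.13 and 6.95 in the WT arrays. The groups lay far apart relative to their spread. It averaged 8.001 ± 0.023 in Flt3 KO and 7.04 ± 0.13 in WT (SD, n = 2 each) and rose by 0.96 (SE 0.083, adjusted p = 0.0039), more than 99.7% of all genes in absolute size. Its paralog Pfkfb4 had 6.04 and 6.22 in Flt3 KO and 6.23 and 6.33 in WT, a difference of -0.15 (adjusted p = 0.49).

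Of the phosphofructokinase subunits, the platelet-type gene Pfkp stood closest to the threshold. Its log2 intensities were 9.78 and 9.86 in Flt3 KO and 9.16 and 9.48 in WT. Both Flt3 KO arrays were above both WT arrays, but the WT arrays themselves were well apart. The difference was 0.50 (SE 0.10) with a limma adjusted p of 0.056. Some settings put that adjusted p under the threshold, such as 0.029 under quantile normalization and 0.045 with array medians set equal. Others moved it away, to 0.15 without the intensity trend in limma and 0.11 with all probe sets tested together. The liver-type gene Pfkl (-0.088) and the muscle-type gene Pfkm (-0.021) had overlapping genotypes.

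**Figure D2:**
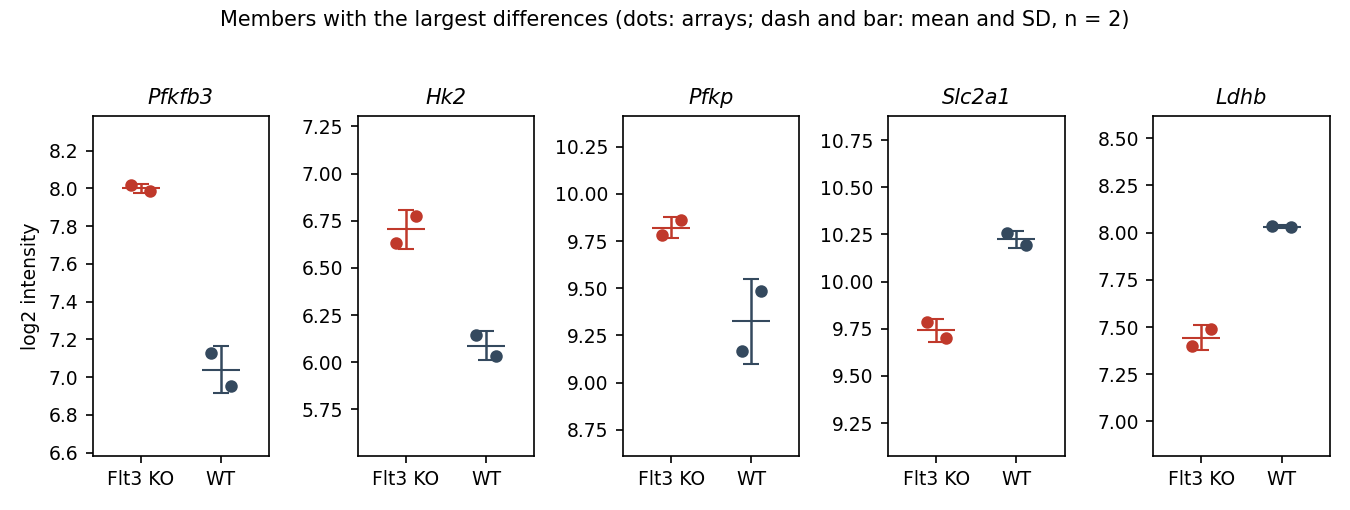
Log2 intensity (y axis, each panel spanning the same range) of the 4 called members and Pfkp in the Flt3 KO and WT arrays; dots are arrays, the dash is the mean and the bar the SD (n = 2). In all 5 genes the arrays of the genotypes do not overlap, and the widest spread within a genotype is that of Pfkp in WT, 9.16 and 9.48.

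The middle of glycolysis, where hexose is split and oxidised to phosphoglycerate, showed no call in limma among 5 measured members, of which 2 lower ones had an unadjusted p under 0.05. The largest difference there was that of Tpi1, triose phosphate isomerase, with 8.47 and 8.58 in Flt3 KO and 8.72 and 8.71 in WT. Both Flt3 KO arrays lay lower, and the difference was -0.19 (SE 0.065, adjusted p = 0.21). Aldoa, the main aldolase, differed by -0.13 (adjusted p = 0.26) and the brain-type aldolase gene Aldoc by 0.068. Pgk1, phosphoglycerate kinase, and Pgam1, phosphoglycerate mutase, differed by 0.082 and -0.097.

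At the end of the pathway, the pyruvate kinase gene Pkm had 9.13 and 9.11 in Flt3 KO and 8.99 and 8.97 in WT, with a difference of 0.14 (SE 0.056, adjusted p = 0.27). The neuronal enolase gene Eno2 averaged 4.99 ± 0.010 in Flt3 KO and 4.82 ± 0.17 in WT (SD, n = 2 each), a difference of 0.18 (SE 0.11, adjusted p = 0.47), and the muscle enolase gene Eno3 had a difference of -0.17 (adjusted p = 0.36). Eno2, Hk3, Pfkm and Slc16a1 were below 5.89, the median of all genes, in both genotypes on average.

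Lactate dehydrogenase is a tetramer of A and B subunits; the A form is known to favour pyruvate-to-lactate conversion and the B form the reverse. Ldhb had log2 intensities of 7.40 and 7.49 in the Flt3 KO arrays, against 8.04 and 8.03 in the WT arrays. Both Flt3 KO values were below both WT values. It averaged 7.44 ± 0.064 in Flt3 KO and 8.03 ± 0.0070 in WT (SD, n = 2 each), and fell by 0.59 (SE 0.070, adjusted p = 0.011). Ldha had 10.16 and 10.20 in Flt3 KO and 10.28 and 10.24 in WT, a difference of -0.085 (SE 0.049, adjusted p = 0.44) whose 95% interval ran from -0.20 to 0.031.

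The kept Ldhb probe set had its neighbours on chromosome 19, whereas Ldhb lies on chromosome 6. A second probe set, with neighbours on chromosome 6, had 6.27 and 6.30 in Flt3 KO and 6.68 and 6.75 in WT. It showed the same order of genotypes, with a difference of -0.43 (SE 0.082, adjusted p = 0.047 over all probe sets with 1 symbol). Pgk1, Pgam1 and Pkm likewise had 1 probe set at their own chromosome and others elsewhere. At their own chromosome their differences were 0.061, -0.071 and 0.084, each of the same sign as the kept probe set and with an adjusted p of 0.54 or more. Probe sets of 1 gene can share probes: 2 of the 3 for Pgk1, and 2 of the 3 for Pgam1, held identical values in every array, so they are not independent readings.

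**Figure D3:**
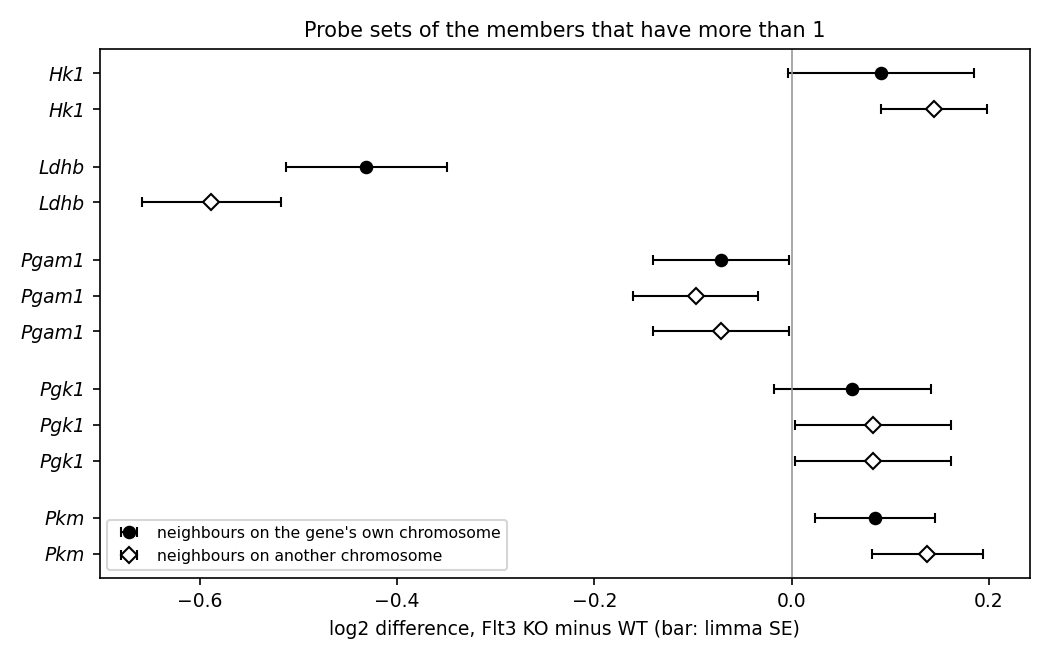
Log2 difference, Flt3 KO minus WT (x axis, bar: limma SE), of every probe set of the 5 members that have more than 1; filled circles mark probe sets whose neighbours in number order lie on the gene's own chromosome and open diamonds the others. Both Ldhb probe sets lie left of 0, at -0.43 and -0.59, and the probe sets of each other gene share a sign.

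Monocarboxylate transporters carry lactate and pyruvate across the plasma membrane. Slc16a1 (MCT1) had a dim signal of 4.67 and 4.66 in Flt3 KO and 4.47 and 4.16 in WT, a difference of 0.35 (SE 0.12, adjusted p = 0.21). Slc16a3 (MCT4), the exporter of glycolytic cells, had 6.56 and 6.53 in Flt3 KO and 6.50 in both WT arrays, a difference of 0.043 (adjusted p = 0.84).

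Pyruvate enters the citric acid cycle through pyruvate dehydrogenase, which the PDK kinases switch off. All 4 measured members of this step had negative differences, apart from Pdha1 at 0.018 under quantile normalization, and limma called none (1 had an unadjusted p under 0.05). Pdk3 had 7.94 and 8.004 in Flt3 KO and 8.26 and 8.18 in WT, a difference of -0.25 (SE 0.068, adjusted p = 0.13). Pdk1, a known HIF-1 target, had 5.89 and 6.29 in Flt3 KO and 6.21 and 6.40 in WT, so its genotypes overlapped, with a difference of -0.21 (adjusted p = 0.50). The subunit genes Pdhb and Pdha1 differed by -0.16 and -0.030.

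In the pentose phosphate pathway limma called none of 5 measured members, and 1 had an unadjusted p under 0.05. The largest difference was that of Rpia, ribose 5-phosphate isomerase, with 6.56 and 6.36 in Flt3 KO and 6.69 and 6.60 in WT, a difference of -0.18 (SE 0.095, adjusted p = 0.38). The other 4 had positive differences: 0.14 for the transaldolase gene Taldo1 (adjusted p = 0.28), 0.10 for the epimerase gene Rpe, 0.075 for the transketolase gene Tkt and 0.053 for Pgd, which encodes the second NADPH-producing dehydrogenase. Hif1a, the gene of the oxygen-regulated subunit of HIF-1, had 9.92 and 9.85 in Flt3 KO and 9.90 in both WT arrays, with a difference of -0.015 (SE 0.053, adjusted p = 0.93). HIF-1 is controlled mainly by protein stability, which RNA does not show.

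**Figure D4:**
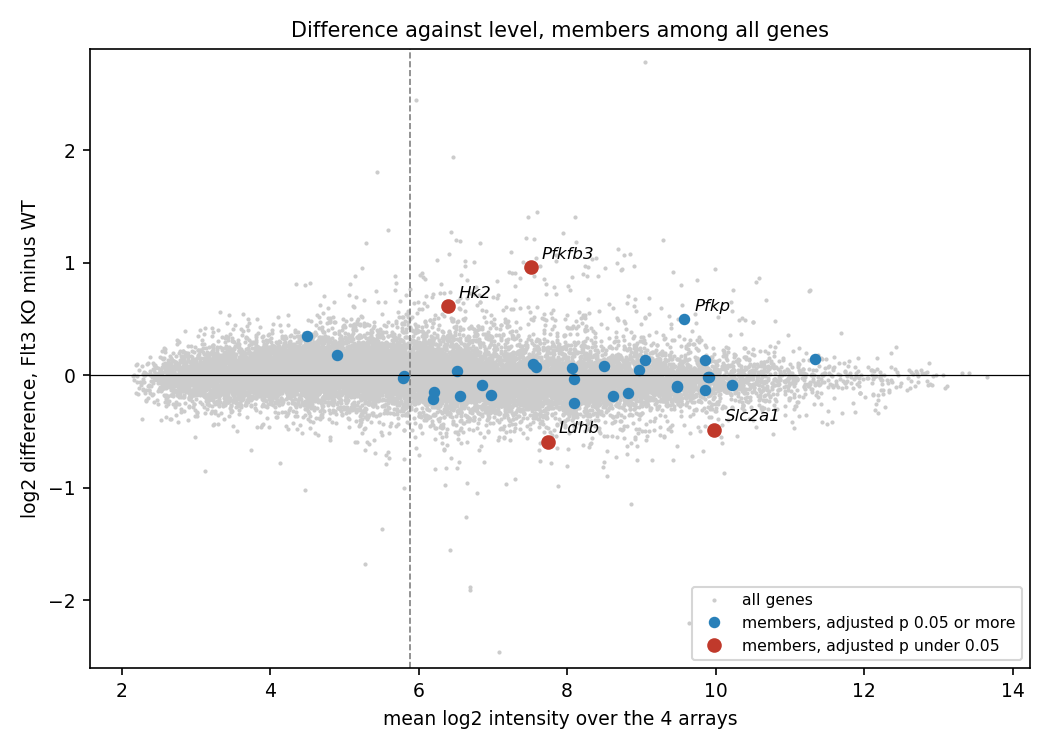
Log2 difference, Flt3 KO minus WT (y axis), against the mean log2 intensity over the 4 arrays (x axis), for all genes (grey), the called members (red) and the other members (blue); the dashed line marks 5.89, the median of all genes. The called members lie at the edge of the grey cloud, with differences of 0.96, 0.62, -0.48 and -0.59, and 29 of the 33 members lie right of the dashed line.

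All 4 calls were lost when any single array was left out, which leaves 1 residual degree of freedom: adjusted p-values then ran from 0.068 to 0.20 for Pfkfb3, 0.11 to 0.29 for Hk2, 0.078 to 0.28 for Slc2a1 and 0.097 to 0.28 for Ldhb. Without the intensity trend in limma the adjusted p was 0.059 for Hk2 and 0.071 for Slc2a1, and with all 30177 probe sets tested together it was 0.0504 for Hk2.

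Promoters of the called members are printed because genes of this pathway are textbook targets of HIF-1, which binds the core ACGTG or GCGTG. The sequences are the 250 bases before each RefSeq gene start (GRCm38.p6), 5′ to 3′ on the gene's strand, with matches to either core on either strand in capitals. Pfkfb3 has 2 annotated starts.
Pfkfb3 outer promoter, chr2:11553930-11554179, minus strand: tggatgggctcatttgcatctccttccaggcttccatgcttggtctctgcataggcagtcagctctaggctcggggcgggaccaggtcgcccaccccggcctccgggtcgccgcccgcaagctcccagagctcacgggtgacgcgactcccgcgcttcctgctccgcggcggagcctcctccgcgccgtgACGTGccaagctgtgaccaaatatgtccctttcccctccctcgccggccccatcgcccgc
Pfkfb3 inner promoter, chr2:11502091-11502340, minus strand: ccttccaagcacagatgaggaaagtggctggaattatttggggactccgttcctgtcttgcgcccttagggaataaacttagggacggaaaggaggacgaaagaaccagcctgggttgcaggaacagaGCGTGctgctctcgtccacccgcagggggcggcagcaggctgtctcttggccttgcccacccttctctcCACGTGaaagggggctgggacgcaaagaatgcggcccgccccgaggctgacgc
Hk2 promoter, chr6:82774455-82774704, minus strand: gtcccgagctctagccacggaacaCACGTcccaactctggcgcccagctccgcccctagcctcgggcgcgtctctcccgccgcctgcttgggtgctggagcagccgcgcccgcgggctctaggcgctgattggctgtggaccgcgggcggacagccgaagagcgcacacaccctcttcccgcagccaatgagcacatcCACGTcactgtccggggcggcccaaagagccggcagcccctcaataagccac
Slc2a1 promoter, chr4:119108495-119108744, plus strand: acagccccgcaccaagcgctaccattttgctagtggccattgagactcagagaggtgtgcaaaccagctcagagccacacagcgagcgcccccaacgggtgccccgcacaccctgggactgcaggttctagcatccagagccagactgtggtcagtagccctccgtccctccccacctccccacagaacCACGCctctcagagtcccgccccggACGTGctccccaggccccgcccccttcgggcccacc
Ldhb promoter, chr6:142507958-142508207, minus strand: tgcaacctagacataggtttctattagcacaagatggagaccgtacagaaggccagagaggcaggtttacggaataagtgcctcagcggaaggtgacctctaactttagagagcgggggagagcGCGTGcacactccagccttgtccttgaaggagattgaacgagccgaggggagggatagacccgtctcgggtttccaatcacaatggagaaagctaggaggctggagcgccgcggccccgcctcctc
At least 1 core stood in every one of these windows, in genes that were higher and in genes that were lower. In the inner Pfkfb3 window one match forms the palindrome CACGTG, an E-box, which overlaps the core on both strands.

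Among the measured members 32 had a window in the table, and 29 of them (90.6%) held the core in at least 1 window, compared with 41.5% of 27025 genes. Of these 29, 25 were not called. The 27025 are all genes with a window, whether or not the arrays measured them. Members had 44 windows for 32 genes, against 32851 for 27025, and more windows per gene raise such a share. Slc2a3 had no entry. The core contains CG, and member windows were richer in CG dinucleotides, with a median of 14 against 6 over all windows. In windows with at least 10 CG dinucleotides the core stood in 28 of 31 member windows (90.3%) and in 64.2% of 12417 windows overall. The E-box CACGTG stood in 5 member genes (15.6%) and 6.86% of all genes, and TTCNNNGAA, the STAT site, searched on both strands, in 2 member genes (6.25%) and 8.13% of all genes. None of the 4 called members held the STAT site in these windows, which 4 genes are too few to set apart from these shares. A match is a stretch of letters and does not show binding.

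Of 114 further genes of these and adjoining pathways, 106 were measured; 3 fell and none rose in limma (where an unadjusted p under 0.05 was found for 9 lower and 6 higher), 2.83% beside the background of 2.39%, and their median difference was -0.015. Pgam2, the muscle-type phosphoglycerate mutase gene, had 8.61 and 8.39 in Flt3 KO and 9.18 and 9.07 in WT. It fell by 0.63 (SE 0.086, adjusted p = 0.017). Pgls, which encodes the lactonase of the pentose phosphate pathway, had 8.68 and 8.70 in Flt3 KO and 9.06 and 9.02 in WT. It fell by 0.35 (SE 0.057, adjusted p = 0.029). The phosphoglucomutase gene Pgm1, whose product links glycogen to glycolysis, had 6.99 and 7.07 in Flt3 KO and 7.42 and 7.45 in WT. It fell by 0.40 (SE 0.074, adjusted p = 0.043). All 3 calls were lost without the intensity trend and with any single array left out, and those of Pgls and Pgm1 also with all probe sets tested together.

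By branch, 1 of 21 further glycolysis genes, 1 of 9 pentose phosphate genes and 1 of 26 genes of gluconeogenesis, glycogen and hexose side branches fell. None was called among 14 genes of pyruvate entry and lactate, 18 regulators of HIF and glucose sensing, or 18 HIF-1 targets outside glycolysis, by limma over all genes. At an unadjusted p under 0.05 there were 3, 4 and 2 in these sets, beside 17.1% of all genes. The same unadjusted count was 12 of the 33 members, 7 higher and 5 lower. It was 10 with the probe set at the gene's own chromosome kept, where Hk1 and Pkm had unadjusted limma p of 0.37 and 0.20.

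Markers of other cells moved between the same arrays. Of 23 monocyte and macrophage markers 6 rose and none fell (10 and 0 at an unadjusted p under 0.05 in limma), and their summed intensity was 7233 and 9452 in Flt3 KO and 6740 and 6054 in WT. Of 13 markers of type 2 conventional dendritic cells 6 rose and 2 fell, with sums of 8506 and 8851 in Flt3 KO and 7734 and 7205 in WT. Of 14 pDC markers 6 fell and none rose (10 and 0 at an unadjusted p under 0.05), with sums of 37610 and 37720 in Flt3 KO and 43563 and 43183 in WT. Of 10 plasma cell markers 2 rose and 2 fell: Jchain, the joining chain of antibodies, by 1.205 and the surface receptor gene Slamf7 by 0.94, while Mzb1, which aids antibody folding, had a difference of -0.53 and the transcription factor gene Xbp1 one of -0.25. Of 10 natural killer cell markers only the activating receptor gene Klrk1 was called, with a rise of 0.68. Limma called no marker of type 1 conventional dendritic cells, B cells, T cells, neutrophils, erythroid cells or platelets, and each of these lists had 1 to 4 markers at an unadjusted p under 0.05. All intensity values were above 0, so a value above 0 does not show that a cell type was present.

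Flt3 KO replicate 2 was the array highest in the summed monocyte and macrophage markers. Without it the differences were 0.98 for Pfkfb3, 0.54 for Hk2, -0.44 for Slc2a1 and -0.63 for Ldhb. These genes were called with that array included, and their genotypes did not overlap. Leaving it out could therefore not turn a sign, and these differences do not show what part other cells had. Over all 23 monocyte and macrophage markers, the median difference from the WT mean was 0.53 for Flt3 KO replicate 2. It was 0.078 for Flt3 KO replicate 1, beside 0.082 and -0.082 for the WT arrays. Above the WT mean were 21 of the 23 for Flt3 KO replicate 2 and 15 for replicate 1. The called markers were above WT for both Flt3 KO arrays, an order that calling by limma favours. Ccr2, a chemokine receptor gene, had 9.16 and 9.19 in Flt3 KO and 8.43 and 8.52 in WT. Fn1, the fibronectin gene, had 6.56 and 6.44 in Flt3 KO and 5.69 and 5.55 in WT. Lyz2 had 8.06 and 8.04 in Flt3 KO and 7.63 and 7.45 in WT, and Lyz1 6.76 and 6.77 against 6.35 and 6.21. The other called markers were higher in Flt3 KO replicate 2 than in replicate 1. Cd14 had 9.11 and 9.65 in Flt3 KO and 8.34 and 8.26 in WT, and Cx3cr1 8.63 and 9.06 against 7.73 and 7.90. The 13 markers of type 2 dendritic cells had medians of 0.28 and 0.21 in Flt3 KO replicates 1 and 2. In each of these arrays 9 of the 13 were above the WT mean. The part of these other cell markers in the results was not tested. None of 19 cell cycle genes was called by limma, and 0 had an unadjusted p under 0.05, with a median difference of -0.0070.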

How the data were processed

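The values are intensity as deposited by the authors, already processed and on a linear scale, for 30177 probe sets on 4 arrays. How they were background-corrected, summarised and scaled is not given in the sources used here. Per the labels' protocols, total RNA was amplified with an Ambion kit and labelled with biotin. Probe sets were named from the platform annotation: 21789 had 1 symbol, 1621 several and 6767 none. For each of 19938 genes the probe set with the highest mean was kept. The intensity values as deposited were converted to log2 with no added constant and no filter, and Flt3 KO was tested against WT with limma (version 3.58.1, R version 4.3.3; lmFit, eBayes with intensity trend, no covariate; Benjamini-Hochberg over all genes). The fit was also run on simulated independent normal values with variances taken from this fit. That run cannot show whether the model's assumptions hold for the real arrays.

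Every measured member is named; called members and the largest difference of each step are given in full, and of the further pathway genes those called. The members and lists were chosen with earlier results of these data known. Alternatives covered scaling, an added constant of 16, a filter on dim genes, the variance model, probe set choice, a replicate block and each array left out. The neighbour check of probe sets took 5 probe sets on each side and matched the gene's chromosome for 99.7% of probe sets of genes with a single probe set; it was added after the data were seen.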

Additional observations from a re-analysis of the deposited data

How the results depend on the processing

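Pfkfb3, Hk2, Slc2a1 and Ldhb kept their sign in every alternative run. Several settings could not turn it: changes of the variance model leave the difference as it is. Leaving out 1 array cannot turn the sign where genotypes do not overlap. Under settings that kept all 4 arrays, 2 or 3 members were higher and 2 lower, except 1 and 1 without the intensity trend, and 1 higher with all probe sets tested together; the third higher member was Pfkp. The count of all genes was 724 with dim genes left out, 108 without the intensity trend and 219 with all probe sets together, beside 476. Further pathway genes called were 5 after centring, 6 under quantile normalization, 7 with dim genes left out, 0 without the trend (limma), 6 with robust variance and 1 with all probe sets together, beside 3.

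The members' median of -0.015 was -0.053 after centring, 0.018 under quantile normalization and -0.030 with dim genes left out, and ran from -0.031 to 0.0022 with 1 array left out. Of all genes, 217 were higher and 452 lower after centring, and 293 and 259 under quantile normalization, beside 215 and 261. Under quantile normalization the sign turned for Slc2a3 (0.023), Pdha1 (0.018) and Hif1a (0.029). With 1 array left out, 0 to 54 genes were called in limma (2068 to 2689 at an unadjusted p under 0.05), with 0 members higher, 0 lower and 0 further genes in each fit (7 to 10 members at an unadjusted p under 0.05); the lone sample is assumed to vary like the other genotype. Ranges that crossed 0 in those fits were -0.072 to 0.043 for Slc2a3, -0.12 to 0.11 for Hk3, -0.11 to 0.072 for Pfkm, -0.00088 to 0.17 for Pgk1, -0.067 to 0.0065 for Pdha1, -0.0061 to 0.11 for Pgd and -0.054 to 0.024 for Hif1a. The causes were not tested.

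The labels number the replicates and do not say whether same-numbered samples were paired. Deviations of same-numbered arrays from their group means correlated at -0.017 across genes. With 2 arrays per genotype this value cannot settle whether they were paired. With the replicate block 375 genes were called, with 3 members higher, 2 lower and 1 further gene, Pgam2 (adjusted p = 0.0086); Pgls and Pgm1 had 0.054 and 0.066. With the probe set at the gene's own chromosome kept, a setting added after the data were seen, 468 genes were called and the same 4 members passed.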
